A study of Homo sapiens with 6 samples.

Results

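The genes described here encode the machinery of S phase and DNA replication. They were chosen by name, as a list of 51 symbols, with earlier results of these data known. All 51 were found by NCBI gene identifier among the 40895 genes of the count files. The cells were A375SM, an established human melanoma line derived from metastases of A375. One group, shPRAME, carried a short hairpin RNA against the mRNA of PRAME, a cancer-testis antigen. The other group, shCtrl, carried a control hairpin. Each group had 3 polyA RNA libraries, sequenced as read pairs of 150 bases. All 6 libraries have the same batch label and a wild-type genotype label, and both groups had been transduced. The design text calls the control libraries biological replicates, but the sources used here do not say whether a group's libraries came from separate transductions or cultures. The p-values below are thus set by how much these libraries vary, and that variation may be technical. How many hairpins were used against PRAME is not given in the sources used here.

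Before a cell replicates its DNA, the origin recognition complex, CDC6 and CDT1 load rings of the proteins MCM2 to MCM7 onto origins. In S phase these rings join CDC45 and the GINS complex to form the active helicase, and primase with polymerases alpha, delta and epsilon copies the unwound strands behind it. PCNA clamps the polymerases to DNA, RFC loads the clamp, and FEN1 and LIG1 process and seal the pieces of the lagging strand. Ribonucleotide reductase, thymidylate synthase and thymidine kinase supply the nucleotides. E2F factors, released when cyclin-dependent kinases phosphorylate the RB protein, switch on many of these genes at the border of G1 and S, and their mRNAs are therefore widely used as markers of proliferation in tumours.

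PRAME mRNA checked the labels. It had 57.7, 57.8 and 53.8 CPM in the shPRAME libraries and 166, 164 and 165 CPM in the shCtrl libraries, 34.2% of the control level (log2 fold change -1.55, SE 0.0314, edgeR adjusted p = 4.85e-17). CPM are counts per 1000000 counts of a library, scaled by edgeR's TMM method, and libraries held 30842788 to 34107332 counts. SOX10, a neural crest factor that marks melanoma, stood at 275 ± 1.48 CPM in shPRAME and 266 ± 7.95 CPM in shCtrl (mean ± SD, n = 3 each here and below). The pigment cell genes PMEL, MLANA and DCT were under 0.3 CPM on average in both groups, and TYR had no count in any library. Of 9 melanoma markers 5 were tested, 1 of them higher and 3, with PRAME, lower. Genes used as markers of other cell types differed too. Of 8 fibroblast markers 6 were tested, 4 higher and 2 lower, and their summed level was 76.2 to 83.5 CPM in shPRAME and 108.8 to 113.0 CPM in shCtrl. By the mean over all 6 libraries the most abundant of them were PDGFRB and FAP, the 2 that were lower. PDGFRB stood at 17.4 ± 1.32 CPM in shPRAME and 64.3 ± 1.85 CPM in shCtrl. FAP stood at 26.99 ± 0.771 CPM in shPRAME and 46.1 ± 1.202 CPM in shCtrl. COL1A2, a collagen chain named after its values were seen, had 22.98, 21.3 and 20.4 CPM in the shPRAME libraries and no count in the shCtrl libraries. LUM, COL3A1 and COL1A1, named likewise, were also higher. LUM stood at 9.89 ± 0.178 CPM in shPRAME and 0.0102 ± 0.0177 CPM in shCtrl. COL3A1 stood at 2.58 ± 0.631 CPM in shPRAME and 0.0305 ± 0.0296 CPM in shCtrl. Of 6 leukocyte markers 3 were tested and higher, with a summed level of 72.2 to 74.1 CPM in shPRAME and 42.9 to 45.2 CPM in shCtrl, most of it CD68, at 70.7 ± 0.767 CPM in shPRAME and 43.9 ± 1.16 CPM in shCtrl. LYZ followed at 1.31 ± 0.155 CPM in shPRAME and 0.0707 ± 0.0437 CPM in shCtrl, and CD3E had no count. Of 4 keratinocyte markers KRT10 alone was tested and was lower, at 23.4 ± 0.613 CPM in shPRAME and 28.2 ± 1.08 CPM in shCtrl. Their sum was 23.2 to 24.4 CPM in shPRAME and 27.7 to 29.6 CPM in shCtrl, KRT14 was under 0.5 CPM, and KRT5 and KRT1 had no count. Of 4 endothelial markers none was tested: VWF and PECAM1 were under 0.5 CPM in every library, and CDH5 and CLDN5 had no count. Their part in the results below was not tested.

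The replication genes were mostly a little higher in the knockdown cells, and a minority was lower, among them CHAF1B, WDR76, the E cyclins, E2F2, E2F8 and the reductase subunit RRM2. All 51 passed the filter on low counts. Of these, 31 rose, 13 fell and 7 did not pass the test (edgeR quasi-likelihood test, Benjamini-Hochberg adjusted p under 0.05 over 15954 genes). Over all genes tested 74.4% passed, 37.7% higher and 36.8% lower, so the share of members higher, 60.8%, stood above that of all genes, and the share lower, 25.5%, below it. The median log2 fold change of the members was 0.13, and that of all tested genes 0.01. TYMS alone passed a change of 2-fold, where 10.1% of all genes did so upward and 8.43% downward. At 43 of the 51 genes the groups did not overlap, against 76.5% of all genes. In bulk RNA, more or fewer cells in S phase and more or less of an mRNA in each such cell cannot be told apart.

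**Figure D1:**
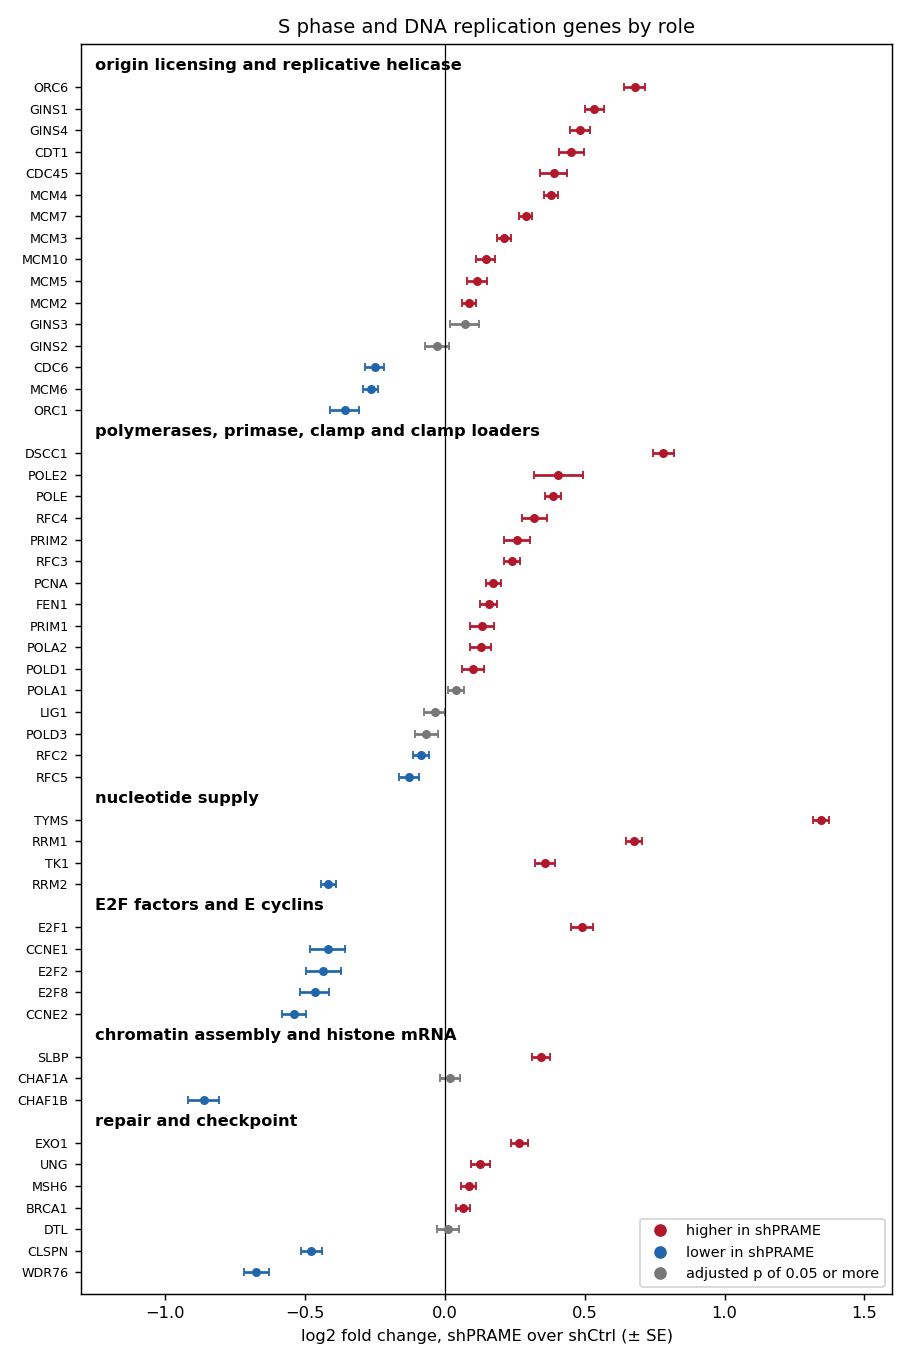
Log2 fold change (x axis, shPRAME over shCtrl) of each replication gene with its standard error as a bar, ordered within 6 roles. Red points, 31 genes, were higher and blue points, 13 genes, lower in shPRAME; TYMS lies alone beyond 1, and 4 of 5 points among E2F factors and E cyclins are on the left.

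Small changes made up much of this count. Against a minimum fold of 1.2 (edgeR's glmTreat), 23 of the 51 passed, 14 higher and 9 lower, where 48.4% of all genes passed. Summed over the 51 genes, the level was 5604, 5747 and 5888 CPM in shPRAME and 4966, 4976 and 5050.2 CPM in shCtrl. Without TYMS, left out after its values were seen, the sums were 5148, 5285 and 5412 CPM in shPRAME and 4790, 4793 and 4861 CPM in shCtrl.

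The libraries of a group were not alike at these genes. Library 3 was the highest of the shPRAME libraries at 36 of the 51 genes, or 70.6%, and at 33.9% of all tested genes. Among the shCtrl libraries the third was the highest at 25 members, or 49.0%, against 36.1% of all tested genes. Without shPRAME replicate 3, 28 members were higher and 13 lower. MCM5, PRIM1 and POLD1 were the members that no longer passed.

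**Figure D2:**
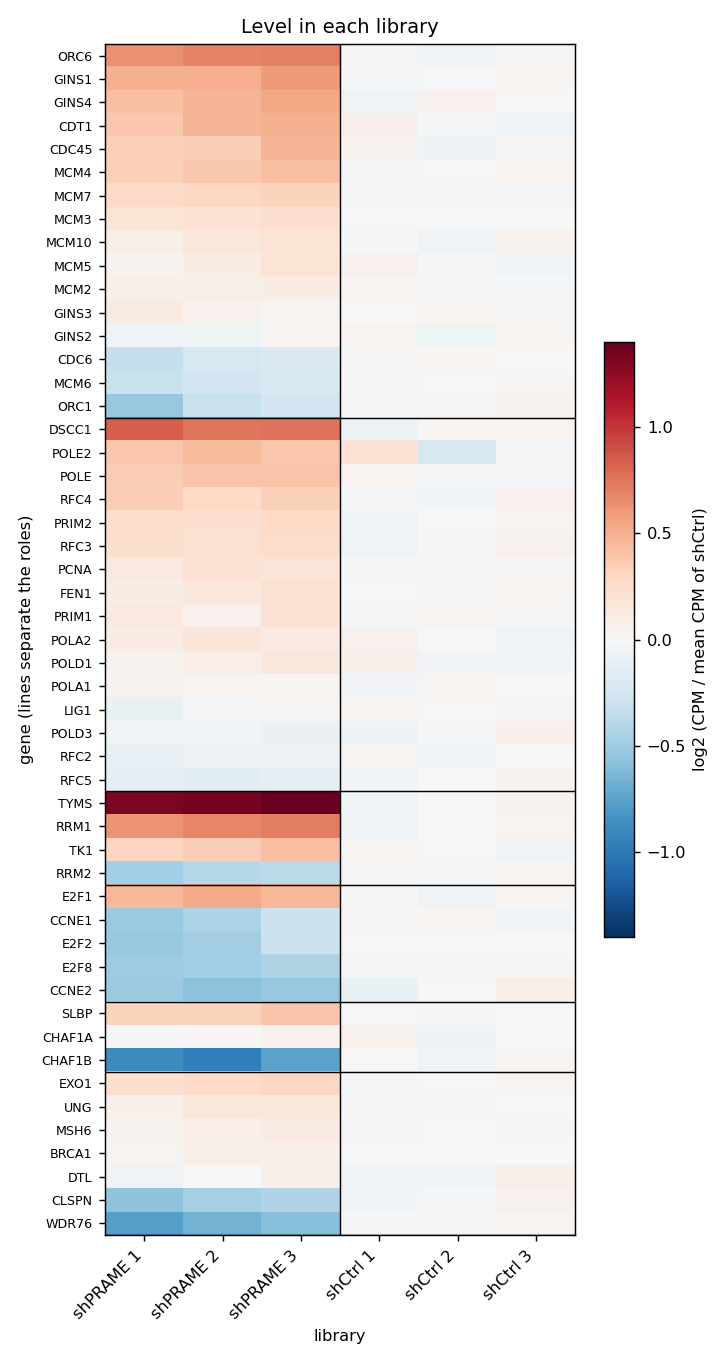
Level of each replication gene in each library, as log2 of its CPM over the mean CPM of shCtrl (colour scale, red above and blue below). The 3 shPRAME libraries stand left of the 3 shCtrl libraries; TYMS is the darkest row, CHAF1B the darkest blue row, and the third shPRAME library is the reddest column at most genes.

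Many promoters of these genes share a feature. E2F factors switch on many S phase genes, so a list of such genes is not independent of it. RefSeq (GRCh38.p14) supplied a 300-base window, from 250 bases before to 50 after a start of the gene, for 43 of the 51. MCM4, MCM5, GINS4 and DSCC1, which rose, had no window. Neither did E2F8, CCNE2 and WDR76, which fell, or POLD3, which did not pass. The core of the E2F binding consensus, searched on both strands as TTCCCGC or TTGGCGC or TTCGCGC or TTGCCGC, occurred in 32 of the 43 windows, or 74.4%. It occurred in 13.1% of all 27305 windows and in 19.8% of the 12263 windows of tested genes. At least 2 matches, which may overlap, were present in 14 of the 43, or 32.6%, against 2.94% of the windows of tested genes. The letters CCAAT, bound by NF-Y, were in 23 windows, or 53.5%, against 36.6% of those of tested genes, and TTTGAA, an element of mitotic promoters, was in 1, or 2.33%, against 10.3%. The median GC content was 65.7% in the members' windows and 64.7% in those of tested genes. A match is a description of letters and not of a bound site.

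Both directions of change held the E2F letters. They were in 18 of 27 windows of genes that rose, in 8 of 10 windows of genes that fell and in all 6 windows of genes that did not pass. The stretches below run from 200 bases before to 10 after the start used for each window, with these letters in capitals. They show a pair of helicase subunits that changed in opposite directions, the E2F factor that rose, and the enzymes with the largest rise and a clear fall in nucleotide supply. In MCM6, which fell, an overlapping pair of matches on opposite strands occurs at 2 places. In MCM7, which rose, such a pair lies across the start. RRM2, which fell, holds no such match in its window, but CCAAT 3 times. The start used for that window lies downstream of the first base listed for RRM2, 10122568, which falls inside the stretch printed below. The bases before that listed base were thus searched only in part.
MCM6 (chr2:135876434-135876643, minus strand): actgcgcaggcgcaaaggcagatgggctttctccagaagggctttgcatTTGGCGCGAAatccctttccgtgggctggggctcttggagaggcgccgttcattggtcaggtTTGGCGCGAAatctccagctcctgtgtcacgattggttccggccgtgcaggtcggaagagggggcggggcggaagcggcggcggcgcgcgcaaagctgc
MCM7 (chr7:100101388-100101597, minus strand): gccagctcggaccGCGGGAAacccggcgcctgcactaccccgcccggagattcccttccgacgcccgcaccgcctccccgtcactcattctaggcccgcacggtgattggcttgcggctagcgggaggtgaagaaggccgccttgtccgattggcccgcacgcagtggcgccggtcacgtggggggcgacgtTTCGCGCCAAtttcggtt
E2F1 (chr20:33686376-33686585, minus strand): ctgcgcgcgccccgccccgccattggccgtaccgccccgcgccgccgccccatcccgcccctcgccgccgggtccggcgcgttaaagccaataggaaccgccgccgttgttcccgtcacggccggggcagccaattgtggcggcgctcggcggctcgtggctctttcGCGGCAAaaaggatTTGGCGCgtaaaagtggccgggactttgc
TYMS (chr18:657453-657662, plus strand): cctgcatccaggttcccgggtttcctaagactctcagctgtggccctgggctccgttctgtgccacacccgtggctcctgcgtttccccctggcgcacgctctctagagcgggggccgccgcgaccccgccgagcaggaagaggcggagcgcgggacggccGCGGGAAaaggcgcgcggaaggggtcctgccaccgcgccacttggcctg
RRM2 (chr2:10122539-10122748, plus strand): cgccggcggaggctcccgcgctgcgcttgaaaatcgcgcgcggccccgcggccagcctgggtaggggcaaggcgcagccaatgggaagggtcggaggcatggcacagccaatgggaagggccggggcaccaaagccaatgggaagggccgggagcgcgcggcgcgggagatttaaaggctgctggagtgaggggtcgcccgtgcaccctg

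**Figure D3:**
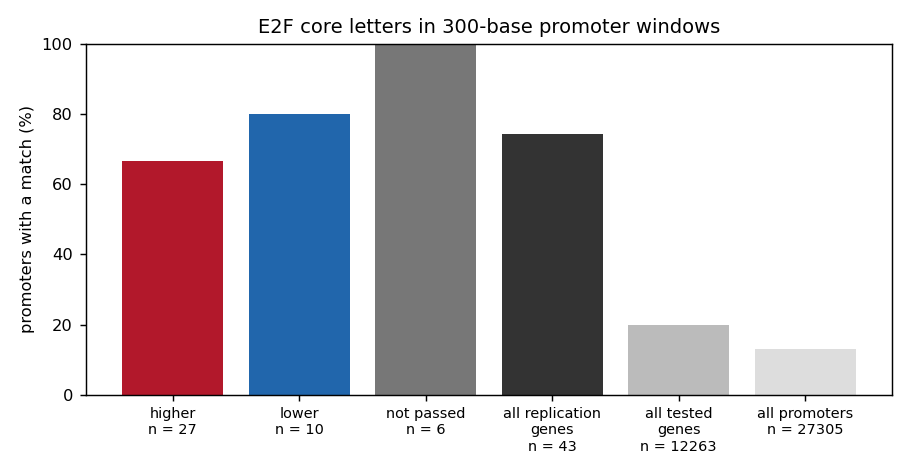
Share of 300-base promoter windows with at least 1 match to the E2F core letters on either strand (y axis, %), for replication genes by call, for all replication genes with a window, for tested genes and for all windows (number of windows under each bar). The bars of the replication genes reach 66.7% (higher), 80.0% (lower), all 6 windows (not passed) and 74.4% (together), and those of tested genes and of all windows at 19.8% and 13.1%.

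Origin and helicase genes were mostly higher. Of 16, 11 rose, 3 fell and 2 did not pass, where 37.7% of all tested genes were higher and 36.8% lower. The median log2 fold change was 0.18 and the range -0.36 to 0.68. ORC6, the smallest subunit of the origin recognition complex (chromosome 16, 46689659 to 46698394, GRCh38 here and below), had 54.6, 56.7 and 56.98 CPM in the shPRAME libraries and 35.5, 34.1 and 35.5 CPM in the shCtrl libraries (log2 fold change 0.68, SE 0.0368, edgeR adjusted p = 2.36e-11). ORC1, the subunit whose level changes with the cell cycle, had 41.9, 48.8 and 50.3 CPM in shPRAME, against 59.1, 59.7 and 62.4 CPM in shCtrl (log2 fold change -0.36, SE 0.0513, edgeR adjusted p = 7.05e-06). The groups did not overlap at either gene, and these subunits of 1 complex moved apart.

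The loading factors CDC6 and CDT1 also parted. CDC6, the ATPase that brings the helicase to ORC (chromosome 17, 40287879 to 40304657), had 98.2, 106 and 108 CPM in the shPRAME libraries and 121, 126 and 123 CPM in the shCtrl libraries (log2 fold change -0.25, SE 0.0335, edgeR adjusted p = 3.23e-06). All 3 shPRAME values were below all shCtrl values. CDT1, its partner in loading, rose with a log2 fold change of 0.45, and stood at 51.7 ± 2.33 CPM in shPRAME and 37.8 ± 1.76 CPM in shCtrl.

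Of the 6 subunits of the MCM ring, 5 rose and MCM6 fell. MCM6 (chromosome 2, 135839626 to 135876443) had 141, 145 and 151 CPM in the shPRAME libraries and 174, 175 and 178 CPM in the shCtrl libraries (log2 fold change -0.27, SE 0.0278, edgeR adjusted p = 1.56e-07), with no overlap. The rises were 0.38 for MCM4, 0.29 for MCM7, 0.21 for MCM3, 0.12 for MCM5 and 0.09 for MCM2 as log2 fold changes. At MCM5 the groups overlapped, since 1 shPRAME library, at 99.1 CPM, lay below a shCtrl library at 99.7 CPM. MCM10, which helps the loaded helicase to start, had 104 ± 3.77 CPM in shPRAME and 94.2 ± 3.31 CPM in shCtrl (log2 fold change 0.15).

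The subunit mRNAs were not equally abundant. Per kilobase of the longest coding transcript in GENCODE 29, MCM7 had the highest level, 164 ± 2.73 CPM per kilobase in shPRAME and 134 ± 2.07 in shCtrl, and MCM4 followed with 128 ± 4.26 in shPRAME and 98.1 ± 1.49 in shCtrl. MCM5 had the lowest, 29.4 ± 1.46 in shPRAME and 27.2 ± 0.926 in shCtrl. In between, MCM3 had 54.4 ± 0.913 in shPRAME and 47.04 ± 0.276 in shCtrl, MCM2 had 51.3 ± 0.463 in shPRAME and 48.3 ± 0.955 in shCtrl, and MCM6 had 39.1 ± 1.28 in shPRAME and 46.98 ± 0.539 in shCtrl. In shCtrl the levels of MCM3 and MCM6 differed by less than their SDs and that of MCM2 by little more, whereas in shPRAME that of MCM6 lay below the other two by more than the SDs. The order rests on the transcript chosen for each length.

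**Figure D4:**
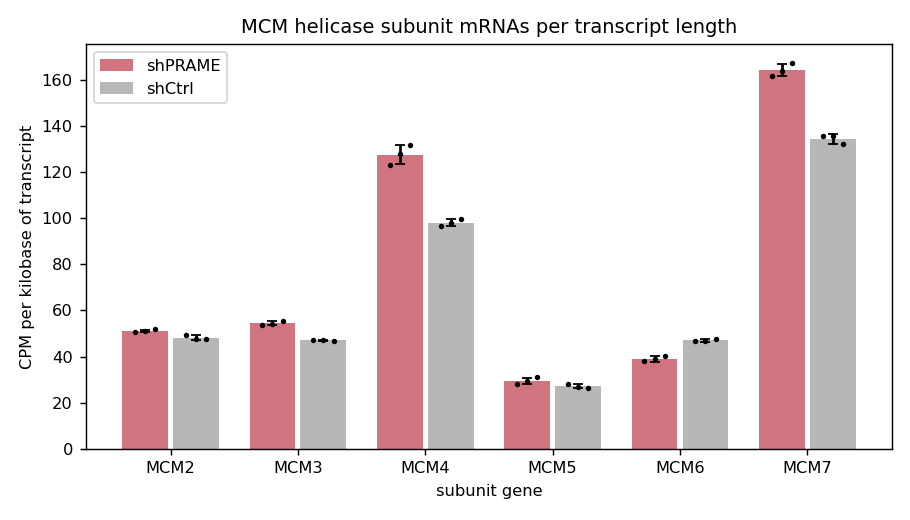
Level of the 6 MCM ring subunit mRNAs in CPM per kilobase of transcript (y axis), with shPRAME (red) left of shCtrl (grey); bars are means, error bars SDs and dots the 3 libraries. MCM7 and MCM4 are the tallest in both groups, and MCM6 is the subunit whose shPRAME bar is the shorter one.

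GINS, the complex that completes the helicase, split by subunit. GINS1 (chromosome 20, 25407673 to 25448563) had 95.8, 96.8 and 103 CPM in the shPRAME libraries and 66.98, 68.2 and 69.2 CPM in the shCtrl libraries (log2 fold change 0.53, SE 0.0335, edgeR adjusted p = 1.74e-10). GINS4 had 101, 105 and 109 CPM in shPRAME, against 72.3, 78.2 and 75.2 CPM in shCtrl (log2 fold change 0.48, SE 0.0357). In both, every shPRAME library was above every shCtrl library. GINS2 and GINS3 did not pass. GINS2 stood at 38.4 ± 1.38 CPM in shPRAME and 39.1 ± 1.49 CPM in shCtrl (log2 fold change -0.03, 95% interval -0.12 to 0.06) and GINS3 at 21.4 ± 0.672 CPM in shPRAME and 20.4 ± 0.445 CPM in shCtrl (log2 fold change 0.07, 95% interval -0.04 to 0.18), although its 3 shPRAME values were the higher ones. CDC45, the third part of the active helicase, rose with a log2 fold change of 0.39, to 40.6 ± 2.21 CPM in shPRAME, against 30.99 ± 1.32 CPM in shCtrl.

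Polymerase, clamp and lagging strand genes were higher too, by little. Of 16, 11 rose, 2 fell and 3 did not pass, where 37.7% of all tested genes were higher and 36.8% lower. The median log2 fold change was 0.14. DSCC1, a subunit of the clamp loader that also serves sister chromatid cohesion (chromosome 8, 119833976 to 119855894), had 79.5, 75.02 and 75.5 CPM in the shPRAME libraries and 42.6, 45.5 and 45.8 CPM in the shCtrl libraries (log2 fold change 0.78, SE 0.0372, edgeR adjusted p = 4.23e-12). POLE, the catalytic subunit of the leading strand polymerase epsilon, had 121, 125 and 125 CPM in shPRAME, against 97.6, 93.6 and 93.4 CPM in shCtrl (log2 fold change 0.39, SE 0.0291, edgeR adjusted p = 2.18e-09). Its partner POLE2 had 13.00, 13.5 and 12.9 CPM in the shPRAME libraries and 11.4, 8.57 and 9.79 CPM in the shCtrl libraries (log2 fold change 0.41, SE 0.0871). All 3 genes had their shPRAME libraries above every shCtrl library, and at POLE2 the shCtrl libraries were the more spread.

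Polymerase alpha and primase changed by less. PRIM2 rose with a log2 fold change of 0.26, PRIM1, the catalytic primase subunit, with 0.13, and POLA2 with 0.13. POLA1, the catalytic subunit of polymerase alpha, did not pass, at 103 ± 0.558 CPM in shPRAME and 100.04 ± 2.69 CPM in shCtrl (log2 fold change 0.04, 95% interval -0.02 to 0.10). In polymerase delta, POLD1, the catalytic subunit, passed with a log2 fold change of 0.10 and overlapping groups (edgeR adjusted p = 0.03003). Its edgeR adjusted p was 0.139 without shCtrl replicate 2, 0.103 without shCtrl replicate 3 and 0.121 without shPRAME replicate 3. POLD3, an accessory subunit, had 38.6, 39.2 and 37.9 CPM in the shPRAME libraries and 38.6, 40.05 and 42.6 CPM in the shCtrl libraries (log2 fold change -0.07, 95% interval -0.15 to 0.02), and did not pass.

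The RFC subunits went both ways. RFC4 and RFC3 rose, with log2 fold changes of 0.32 and 0.24. RFC5 had 47.6, 46.9 and 47.5 CPM in the shPRAME libraries and 50.5, 51.4 and 53.5 CPM in the shCtrl libraries (log2 fold change -0.13, SE 0.0351, edgeR adjusted p = 0.00325). RFC2 had 82.4, 85.1 and 84.6 CPM in shPRAME, against 91.3, 86.8 and 89.3 CPM in shCtrl (log2 fold change -0.09, SE 0.0302, edgeR adjusted p = 0.0175). The groups did not overlap at either. By edgeR, RFC2 no longer passed without shCtrl replicate 1 (adjusted p = 0.0567) or without shPRAME replicate 1 (adjusted p = 0.0995), or with library totals as the only scaling (log2 fold change -0.04, adjusted p = 0.322). PCNA, the clamp itself, rose with a log2 fold change of 0.17, to 256 ± 6.05 CPM in shPRAME, against 227 ± 4.32 CPM in shCtrl. The flap nuclease gene FEN1 rose with 0.16, and the ligase gene LIG1 did not pass (log2 fold change -0.04, 95% interval -0.12 to 0.04).

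Nucleotide supply held the largest change. Of its 4 genes 3 rose and 1 fell, where 37.7% of all tested genes were higher and 36.8% lower. Their median log2 fold change was 0.52. TYMS, thymidylate synthase, which makes thymidylate and is the target of fluorouracil, had 456, 462 and 476 CPM in the shPRAME libraries and 176, 183 and 189.6 CPM in the shCtrl libraries (chromosome 18, 657653 to 673578). The level in shPRAME was 2.54-fold that in shCtrl (log2 fold change 1.35, SE 0.0278, edgeR adjusted p = 6.27e-17). The groups were far apart. TYMS shares 967 of its 1662 exonic bases with ENOSF1 on the opposite strand (GENCODE 29), and since strand use in counting is not given, reads of the pair cannot be told apart with certainty. Of the 51 genes 21 share exonic bases with another gene, and 8 share over 20% with 1 gene: CCNE2, GINS4, MCM2, MSH6, POLA2, PRIM1, RRM2 and TYMS. ENOSF1, looked at for this overlap, stood at 35.1 ± 0.934 CPM in shPRAME and 22.3 ± 0.7001 CPM in shCtrl.

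The subunits of ribonucleotide reductase moved in opposite directions. RRM1, the large subunit (chromosome 11, 4094685 to 4138932), had 270.3, 280.1 and 286 CPM in the shPRAME libraries and 169, 175 and 179.6 CPM in the shCtrl libraries (log2 fold change 0.68, SE 0.0286, edgeR adjusted p = 8.04e-13). RRM2, the small subunit made in S phase (chromosome 2, 10122568 to 10211010), had 249, 261 and 266 CPM in shPRAME, against 341, 340.5 and 356 CPM in shCtrl (log2 fold change -0.42, SE 0.0279, edgeR adjusted p = 4.29e-10). Neither gene had overlapping groups. Per kilobase of transcript, RRM1 had 90.7 ± 2.63 CPM in shPRAME and 56.7 ± 1.73 in shCtrl, and RRM2 70.5 ± 2.41 in shPRAME and 94.1 ± 2.400 in shCtrl. By these values RRM1 had the higher level of the pair in shPRAME and RRM2 in shCtrl. That order rests on the transcript chosen for each length. RRM2 also shares 1077 of 3859 exonic bases with AC007240.1 on the same strand. RRM2B, the p53-inducible alternative small subunit, named after its values were seen, rose to 92.3 ± 1.36 CPM in shPRAME, against 74.8 ± 2.96 CPM in shCtrl. TK1, cytosolic thymidine kinase, had 92.3, 94.7 and 100.5 CPM in the shPRAME libraries and 76.98, 75.1 and 72.4 CPM in the shCtrl libraries (log2 fold change 0.36, SE 0.0355), again without overlap.

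Among the listed E2F factors and E cyclins, 1 of 5 rose and 4 fell, with a median log2 fold change of -0.43. Over all tested genes 37.7% were higher and 36.8% lower, and of 18 other E2F, DREAM and G1/S genes 9 rose and 5 fell. E2F1, an activator of S phase genes (chromosome 20, 33675477 to 33686385), had 42.6, 44.3 and 42.5 CPM in the shPRAME libraries and 30.98, 29.8 and 31.4 CPM in the shCtrl libraries (log2 fold change 0.49, SE 0.0401, edgeR adjusted p = 6.22e-09). E2F2, a further activator, had 15.04, 15.5 and 17.6 CPM in shPRAME, against 21.5, 21.8 and 21.8 CPM in shCtrl (log2 fold change -0.43, SE 0.0617, edgeR adjusted p = 6.42e-06). E2F8, an atypical member that represses E2F targets, had 17.2, 17.4 and 18.1 CPM in the shPRAME libraries and 23.8, 24.6 and 24.6 CPM in the shCtrl libraries (log2 fold change -0.47, SE 0.0515, edgeR adjusted p = 3.08e-07). At each of these factors the groups were apart, E2F1 upward and the other two downward.

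Cyclin E activates CDK2 at the start of S phase, and both of its genes were lower. CCNE1 (chromosome 19, 29811991 to 29824312) had 13.9, 14.6 and 16.05 CPM in the shPRAME libraries and 20.1, 20.2 and 19.3 CPM in the shCtrl libraries (log2 fold change -0.42, SE 0.0627, edgeR adjusted p = 1.15e-05). CCNE2 (chromosome 8, 94880224 to 94896693) had 35.3, 34.1 and 35.2 CPM in shPRAME, against 47.7, 50.6 and 53.8 CPM in shCtrl (log2 fold change -0.54, SE 0.0441, edgeR adjusted p = 6.21e-09). All shPRAME values lay below all shCtrl values for both. CCNE2 shares 1629 of 3432 exonic bases with INTS8 on the opposite strand. INTS8, looked at for this overlap, stood at 76.3 ± 1.05 CPM in shPRAME and 76.95 ± 2.595 CPM in shCtrl and did not pass.

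The small group of chromatin assembly and histone mRNA genes had 1 of 3 higher and 1 lower. These shares were near those of all tested genes, 37.7% higher and 36.8% lower. CHAF1B (chromosome 21, 36385392 to 36419015), a subunit of the chaperone CAF-1 that puts histones onto new DNA, had 19.9, 18.7 and 21.8 CPM in the shPRAME libraries and 36.8, 35.3 and 37.6 CPM in the shCtrl libraries (log2 fold change -0.86, SE 0.0547, edgeR adjusted p = 2.01e-10). It was 1.82-fold lower, the largest fall among the members. CHAF1A, its partner, had 83.04, 84.8 and 87.4 CPM in shPRAME, against 87.5, 79.97 and 84.5 CPM in shCtrl and did not pass (log2 fold change 0.02, 95% interval -0.06 to 0.09). SLBP, which binds the stem-loop of histone mRNAs, had 73.4, 74.5 and 77.9 CPM in the shPRAME libraries and 59.8, 58.9 and 59.3 CPM in the shCtrl libraries (log2 fold change 0.34, SE 0.0326, edgeR adjusted p = 4.33e-08). Only at CHAF1A did the groups overlap.

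Repair and checkpoint members gave 4 rises, 2 falls and 1 gene that did not pass, where 37.7% of all tested genes were higher and 36.8% lower. WDR76, a WD40 repeat protein linked to the DNA damage response (chromosome 15, 43827002 to 43868412), had 27.6, 29.8 and 31.2 CPM in the shPRAME libraries and 46.3, 46.8 and 48.4 CPM in the shCtrl libraries (log2 fold change -0.67, SE 0.0449, edgeR adjusted p = 3.96e-10). CLSPN, claspin, which carries the checkpoint signal from ATR to CHK1, had 71.5, 76.8 and 79.1 CPM in shPRAME, against 103, 104 and 110.2 CPM in shCtrl (log2 fold change -0.48, SE 0.0374, edgeR adjusted p = 3.51e-09). These falls were the larger changes of the role. EXO1, an exonuclease of mismatch repair and end resection, had 87.5, 90.05 and 90.8 CPM in the shPRAME libraries and 72.8, 73.9 and 76.6 CPM in the shCtrl libraries (log2 fold change 0.27, SE 0.0309). UNG, which removes uracil from DNA, had 59.6, 62.95 and 62.6 CPM in shPRAME, against 55.6, 57.4 and 56.8 CPM in shCtrl (log2 fold change 0.13, SE 0.0338). At EXO1 and UNG all shPRAME libraries were the higher ones.

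The remaining repair genes hardly differed. MSH6, a mismatch recognition subunit, had 172, 177 and 180.3 CPM in the shPRAME libraries and 164, 167 and 169 CPM in the shCtrl libraries (log2 fold change 0.08, SE 0.0265). It shares 1644 of 7812 exonic bases with FBXO11, which was higher in shPRAME (log2 fold change 0.33), on the opposite strand. BRCA1, which acts in homologous recombination, had a log2 fold change of 0.06 (edgeR adjusted p = 0.0331), and did not pass without shCtrl replicate 2 (adjusted p = 0.101), shCtrl replicate 3 (adjusted p = 0.0635) or shPRAME replicate 2 (adjusted p = 0.0895). DTL, the ligase adaptor that marks CDT1 for destruction in S phase, had 105, 109 and 116 CPM in shPRAME, against 106, 107 and 115 CPM in shCtrl (log2 fold change 0.01, 95% interval -0.07 to 0.09) and did not pass.

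Many members changed in the direction of nearby genes, but no more often than other genes that passed. For each member the median log2 fold change of the 15 nearest tested genes on each side, none of them members, was taken as that of its neighbourhood. Across the 51 members the gene's own value and that of its neighbourhood had a Pearson r of 0.598, and across 15879 other tested genes 0.223. Neighbouring genes share many of the same neighbours, so these are descriptions. The r values are also not like for like. The members' log2 fold changes ran from -0.86 to 1.35, whereas the other genes include far larger ones, such as COL1A2 at 12.5 beside -0.16. Of the 44 members that passed, 27 (61.4%) had the sign of their neighbourhood, against 69.3% of other genes that passed. CHAF1B stood at -0.86 in a neighbourhood at -0.82, CLSPN at -0.48 beside -0.51, E2F2 at -0.43 beside -0.40 and ORC1 at -0.36 beside -0.33. On the side of the rises, DSCC1 stood at 0.78 beside 0.58, and TYMS at 1.35 beside 0.66. Others went against their neighbourhood: CCNE2 stood at -0.54 beside 0.54, CCNE1 at -0.42 beside 0.16 and MCM7 at 0.29 beside -0.12.

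With each gene's neighbourhood value subtracted in the edgeR fit, 26 members were higher and 11 lower, where 36.1% and 35.2% of all genes were. The neighbourhood value entered that fit as a fixed number, so these calls leave out its own uncertainty. Of the 31 that had risen, 23 were still higher, 5 did not pass and PCNA, SLBP and EXO1 were lower. Of the 13 that had fallen, 7 were still lower: MCM6, CDC6, RRM2, E2F8, CCNE1, CCNE2 and WDR76. ORC1, RFC5, E2F2, CHAF1B and CLSPN no longer passed, and RFC2 was higher. TYMS then had a log2 fold change of 0.68, RRM1 0.40, GINS1 0.54, DSCC1 0.20, RRM2 -0.46, CCNE1 -0.58 and CCNE2 -1.08. MCM6 then stood at -0.09, against -0.27 without this step, and E2F1 at 0.23, against 0.49. RRM1 and RRM2, MCM6 and the ring subunits other than MCM3, and E2F1 and the E cyclins still passed in opposite directions. Of these genes, MCM6, MCM4, RRM1 and E2F1 then had smaller changes than without this step.

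**Figure D5:**
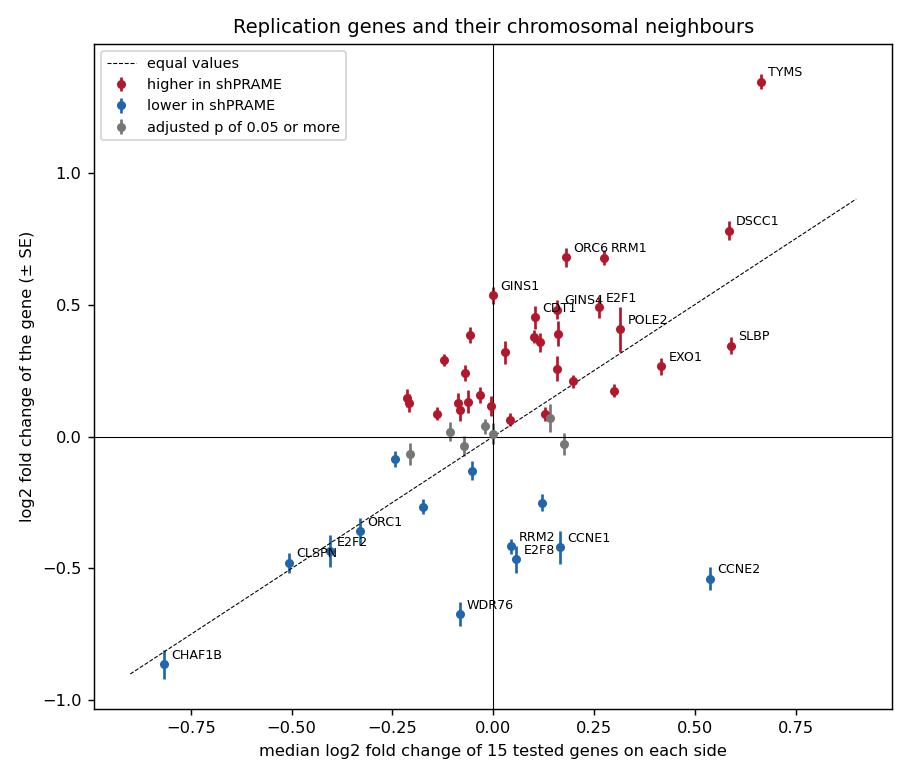
Log2 fold change of each replication gene (y axis, ± SE) against the median log2 fold change of the 15 nearest tested genes on each side (x axis); the dashed line marks equal values. CHAF1B, CLSPN, E2F2 and ORC1 lie near that line, TYMS above it, and CCNE2, CCNE1, RRM2, E2F8 and WDR76 below it.

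Genes of the same pathways outside the list, also chosen with earlier results of these data known, were counted as well. Of 115 in 6 further lists, 64 (55.7%) rose, 31 (27.0%) fell and 20 did not pass, where 37.7% of all genes were higher and 36.8% lower; their median change was 0.15 on the log2 scale. With the neighbourhood values subtracted, 67 were higher and 23 lower. Among 17 other origin and helicase genes 8 rose and 7 fell, shares near those of all genes. CDC7, the kinase that fires origins, rose to 54.2 ± 2.11 CPM in shPRAME, against 26.3 ± 1.26 CPM in shCtrl, and MTBP, a partner of the firing factor treslin, to 54.96 ± 0.249 CPM in shPRAME, against 32.6 ± 1.196 CPM in shCtrl. DONSON, a helicase assembly factor, fell to 24.2 ± 0.663 CPM in shPRAME, against 43.4 ± 0.327 CPM in shCtrl, and ORC4 to 25.8 ± 0.891 CPM in shPRAME, against 37.8 ± 0.825 CPM in shCtrl. Among 21 other fork genes 13 rose and 5 fell. TOP1, which relaxes DNA ahead of the fork, rose to 669.6 ± 18.03 CPM in shPRAME, against 305 ± 6.37 CPM in shCtrl, and the large clamp loader subunit gene RFC1 to 117 ± 0.897 CPM in shPRAME, against 79.6 ± 1.76 CPM in shCtrl. POLK, a bypass polymerase, fell to 30.3 ± 1.51 CPM in shPRAME, against 41.5 ± 2.37 CPM in shCtrl, and RNASEH2C to 23.1 ± 0.619 CPM in shPRAME, against 28.01 ± 0.277 CPM in shCtrl.

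Of 20 other nucleotide supply genes 13 rose and 6 fell, where 37.7% of all tested genes were higher and 36.8% lower. PAICS, a purine synthesis enzyme, rose to 533 ± 8.71 CPM in shPRAME, against 304 ± 8.97 CPM in shCtrl, and CAD, which starts pyrimidine synthesis, to 294 ± 7.09 CPM in shPRAME, against 184 ± 5.67 CPM in shCtrl. GART, a purine synthesis enzyme as well, fell to 194 ± 4.57 CPM in shPRAME, against 259.5 ± 3.31 CPM in shCtrl, and the kinase CMPK1 to 139 ± 1.66 CPM in shPRAME, against 191 ± 13.7 CPM in shCtrl. Among 18 other E2F, DREAM and G1/S genes 9 rose and 5 fell. E2F5, a partner of the RB-related pocket proteins, rose to 24.5 ± 0.148 CPM in shPRAME, against 6.81 ± 0.291 CPM in shCtrl, and CCNA2, cyclin A, to 157 ± 0.151 CPM in shPRAME, against 112 ± 2.24 CPM in shCtrl. TFDP1, the dimer partner of E2F factors, fell to 193 ± 7.07 CPM in shPRAME, against 298 ± 2.73 CPM in shCtrl, and CDC25A, the phosphatase that activates CDK2, to 50.2 ± 0.974 CPM in shPRAME, against 62.5 ± 1.61 CPM in shCtrl.

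Of 13 other chromatin replication genes 6 rose and 3 fell, where 37.7% of all tested genes were higher and 36.8% lower. SUPT16H, a subunit of the histone chaperone FACT, rose to 486 ± 1.798 CPM in shPRAME, against 360.5 ± 6.81 CPM in shCtrl, and CABIN1 to 54.8 ± 0.593 CPM in shPRAME, against 44.2 ± 0.476 CPM in shCtrl. HAT1, which acetylates new histone H4, fell to 76.8 ± 2.29 CPM in shPRAME, against 113 ± 1.93 CPM in shCtrl, and RBBP4, the third CAF-1 subunit, to 201 ± 1.62 CPM in shPRAME, against 247 ± 3.48 CPM in shCtrl. Among 26 other repair and checkpoint genes 15 rose and 5 fell. FANCD2, of the Fanconi anaemia pathway, rose to 87.2 ± 1.93 CPM in shPRAME, against 42.1 ± 1.47 CPM in shCtrl. NBN rose to 241 ± 1.87 CPM in shPRAME, against 158 ± 1.95 CPM in shCtrl, while RAD50, its partner in the MRN complex, fell to 69.6 ± 1.37 CPM in shPRAME, against 109 ± 2.68 CPM in shCtrl. POLQ, a polymerase of end joining, fell to 48.3 ± 1.56 CPM in shPRAME, against 55.7 ± 0.269 CPM in shCtrl.

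Mitotic genes of the G2/M transition, likewise chosen with earlier results known, were also counted, for comparison. Of 24 G2/M genes 20 rose, 2 fell and 2 did not pass, and their median change was 0.35 on the log2 scale, beside 31 of 51 and 0.13 for the replication genes. Over all tested genes 37.7% were higher and 36.8% lower, and the median was 0.01. Whether the lists differ was not tested. TOP2A rose to 1494 ± 25.3 CPM in shPRAME, against 689 ± 11.7 CPM in shCtrl, and UBE2C to 157 ± 4.58 CPM in shPRAME, against 70.7 ± 1.67 CPM in shCtrl. The falls, at ANLN (log2 fold change -0.12) and BUB1 (-0.09), were smaller than those of RRM2 and the E cyclins.

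Several of these other genes also changed no more than their chromosomal neighbours. As log2 fold changes of the gene beside the median of its neighbourhood, DONSON stood at -0.84 beside -0.85, GART at -0.42 beside -0.85, TFDP1 at -0.63 beside -0.76 and RBBP4 at -0.30 beside -0.41. Among the rises RFC1 stood at 0.55 beside 0.62, CCNA2 at 0.49 beside 0.58 and NBN at 0.61 beside 0.79, and among the mitotic falls ANLN at -0.12 beside -0.14 and BUB1 at -0.09 beside -0.41. Others stood apart from theirs: FANCD2 at 1.05 beside -0.02, TOP1 at 1.14 beside 0.21, E2F5 at 1.85 beside 0.65, CDC7 at 1.04 beside 0.36, CAD at 0.68 beside 0.10 and TOP2A at 1.12 beside 0.12.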

How the data were processed

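PolyA RNA of 6 A375SM libraries, 3 with the shPRAME hairpin and 3 with shCtrl, was measured. The authors deposited raw counts for each NCBI gene ID, as whole numbers, from paired reads of 150 bases. The submitters' processing notes name fastp, STAR, Salmon and GRCh38, with no versions; how reads were counted, and with which strand setting, is not given in those sources. Each file had 40929 rows; 34 rows repeating an ID were added to it, and 40789 of 40895 IDs matched RefSeq. A count of 3, taken as the limit of detection, was 0.088 to 0.0973 CPM and covers counting error only.

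Counts were filtered (filterByExpr), scaled by TMM and compared with edgeR 4.0.16 (glmQLFit and glmQLFTest, group as the only term), with Benjamini-Hochberg adjustment over 15954 genes and calls at 0.05. Common variation between libraries was 3.11% (biological coefficient of variation). Intervals are 95%. The fit was also run on simulated counts, in which few genes changed and all genes had the same variation between libraries. In these data 74.4% of genes passed, so that run does not check the calls made here. Genes with values in each library were PRAME and, in each role, the 3 highest and 3 lowest log2 fold changes (all genes of smaller roles); of other pathway lists, the 2 rises and 2 falls of lowest adjusted p among genes averaging 1 CPM or more, and of marker lists, the 2 with the highest mean CPM. Members and lists were chosen with earlier results of these data known. Alternatives were other scalings and filters, DESeq2 1.42.0, limma-voom (limma 3.58.1), glmTreat, a replicate block, removal of the neighbourhood shift and leaving out each library. Transcript lengths and overlaps are from GENCODE 29.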

Additional observations from a re-analysis of the deposited data

How the results depend on the processing

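RLE scaling, no filter on low counts, a filter of 1 CPM in 3 libraries and limma-voom changed no call of a member and no count by over 1.5 times. DESeq2 and the replicate block each lost POLD1 and BRCA1 and gave 29 genes higher and 13 lower. Deviations of same-numbered libraries from their group means correlated at -0.0606, -0.112 and -0.0979, so no shared effect of the replicate number was seen. Such correlations cannot tell whether same-numbered libraries were prepared together. The block changed no other call of a member.

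With library totals as the only scaling, 33 members were higher and 12 lower, 1 polymerase gene was lower (RFC2 no longer passed, at -0.04, adjusted p = 0.322 by edgeR) and the members' median log2 fold change was 0.18. GINS3 (0.12, adjusted p = 0.0441 by edgeR) and POLA1 (0.09, adjusted p = 0.00746 by edgeR) passed there. Against a fold of 1.2 (glmTreat), 14 members were higher. In the helicase role 7 passed, 6 higher and 1 lower, in the polymerase role 3 passed, 3 higher and 0 lower, and in the repair role 2 passed, 0 of them higher. Of the other pathway genes 52 passed, 39 higher and 13 lower. These counts are smaller by construction, since a larger change was required.

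With the neighbourhood shift removed, 1 polymerase gene was lower, and 3 repair genes passed, 1 of them higher. Log2 fold changes turned, at genes that passed in either fit, at POLD3 (0.14), PCNA (-0.12), RFC2 (0.16), SLBP (-0.25), EXO1 (-0.15), CLSPN (0.029) and MSH6 (-0.043); among genes that passed in neither, GINS3 (-0.07) and LIG1 (0.035) turned. The cause was not tested.

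Leaving out each library in turn gave 28 to 31 members higher, 12 to 13 lower, 1 to 2 polymerase genes lower and a median of 0.10 to 0.15. POLD3 passed without shCtrl replicate 1.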
